A study of Rattus norvegicus with 24 samples.

Results

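The comparison described here is that of partial hepatectomy with no operation in the paraventricular nucleus (PVN), a small cell group of the hypothalamus. Its members are the 6 mRNA libraries whose titles name the PVN and either the hepatectomy group (HT) or the normal control group (NC), out of 24 libraries in the series. The animals were male Sprague-Dawley rats bought at 7 weeks of age and kept for 1 week before the experiment. NC rats had no operation, and HT rats lost about 20% of the left liver lobe under isoflurane. Rats of both groups were habituated to restraint for 3 days, 30 min each time, and were later held for as long as the needled rats, so that restraint was on both sides of the comparison and anaesthesia with surgery on 1 side. No group with anaesthesia or a sham operation alone is analysed here, so the anaesthetic, the wound and the loss of liver cannot be told apart. The study also had operated rats given electroacupuncture (EA) or needles without current (SEA), whose 3 PVN libraries each stand beside some results. Brains were taken 24 h after the last needling time. Each group had 3 libraries, and p-values measure the spread between them.

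The PVN holds the neurons that start the hormonal response to stress. Its parvocellular neurons release corticotropin-releasing hormone (CRH), which makes the pituitary secrete adrenocorticotropic hormone and through it the adrenal cortex secrete corticosterone. Corticosterone acts back on the brain through the glucocorticoid and mineralocorticoid receptors. Magnocellular neurons of the nucleus make vasopressin and oxytocin, and other neurons there make thyrotropin-releasing hormone. The comparison asks how gene expression in this nucleus differed after abdominal surgery.

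The 6 libraries held 14932702 to 17596621 counts. A count of 0 in 1 library allows up to 3 counts, or 0.171 to 0.201 CPM, which covers counting error only. CPM are counts as a rate of the library total, and the levels below were scaled by TMM factors across the 12 PVN libraries. Of 35032 genes in the table, 16727 passed the filter on low counts and were tested with edgeR's quasi-likelihood test. With Benjamini-Hochberg adjustment over these genes, 2 genes (0.012%) passed 0.05, both higher in HT. DESeq2 called 29 genes (0.156% of 18630), of which 15 were higher (0.0805%) and 14 lower (0.0751%). At an unadjusted p under 0.05, the threshold of the study, edgeR called 1847 genes (11%), 952 higher (5.69%) and 895 lower (5.35%), and DESeq2 called 1979 of 24731 (8%), 1267 higher (5.12%) and 712 lower (2.88%). The HT and NC libraries did not overlap in 1407 genes that were higher in HT (8.41%) and in 1466 that were lower (8.76%).

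The control libraries were not alike, and 1 of them lay with the operated libraries. In a principal component analysis of the 12 PVN libraries, the first component took 38.4% of the variance and placed NC replicate 1 at -52.1 and NC replicate 3 at -38.2. NC replicate 2 lay at 8.28, within the range of the 9 operated libraries, which ran from -1.29 to 12.9. The correlation of log2 CPM across genes was 0.989 to 0.991 between NC replicate 2 and the HT libraries, and 0.970 and 0.978 between NC replicate 2 and the other NC libraries. In 82.8% of the 1847 genes NC replicate 2 was the control nearest to the HT mean, compared with 61.4% of all genes tested. Without that library edgeR called 3418 genes (20.2%) at the adjusted threshold, 2138 higher (12.6%) and 1280 lower (7.56%), and 5992 (35.4%) at an unadjusted p under 0.05, 3221 higher (19%) and 2771 lower (16.4%). Leaving out NC replicate 1 or 3 gave 0 adjusted calls, HT replicate 1 or 2 gave 1, and HT replicate 3 gave 2. The unadjusted counts for these 5 omissions, in that order, were 710, 782, 733, 977 and 1024. They held 1.8%, 1.72%, 1.96%, 2.55% and 2.97% of the genes tested as higher and 2.37%, 2.89%, 2.34%, 3.19% and 3.07% as lower. Counts for gene lists with a library left out are to be read against these shares. NC replicate 2 was singled out from these same data because it lay near the HT libraries. Calls and adjusted p-values from fits without it show how far results rest on it, and are no independent support for a difference. The label of NC replicate 2 was taken as given, whether it is right was not tested, and every HT against NC value rests on it. Values are therefore given by library below, in the order of replicates 1, 2 and 3. Genes named with an unadjusted p under 0.05 had an adjusted p of 0.418 (edgeR) unless another value is printed, and "higher" and "lower" give the side of HT against NC. List members named beyond the 4 of smallest p, or a fixed set of stress genes, were chosen after their values were seen.

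**Figure D1:**
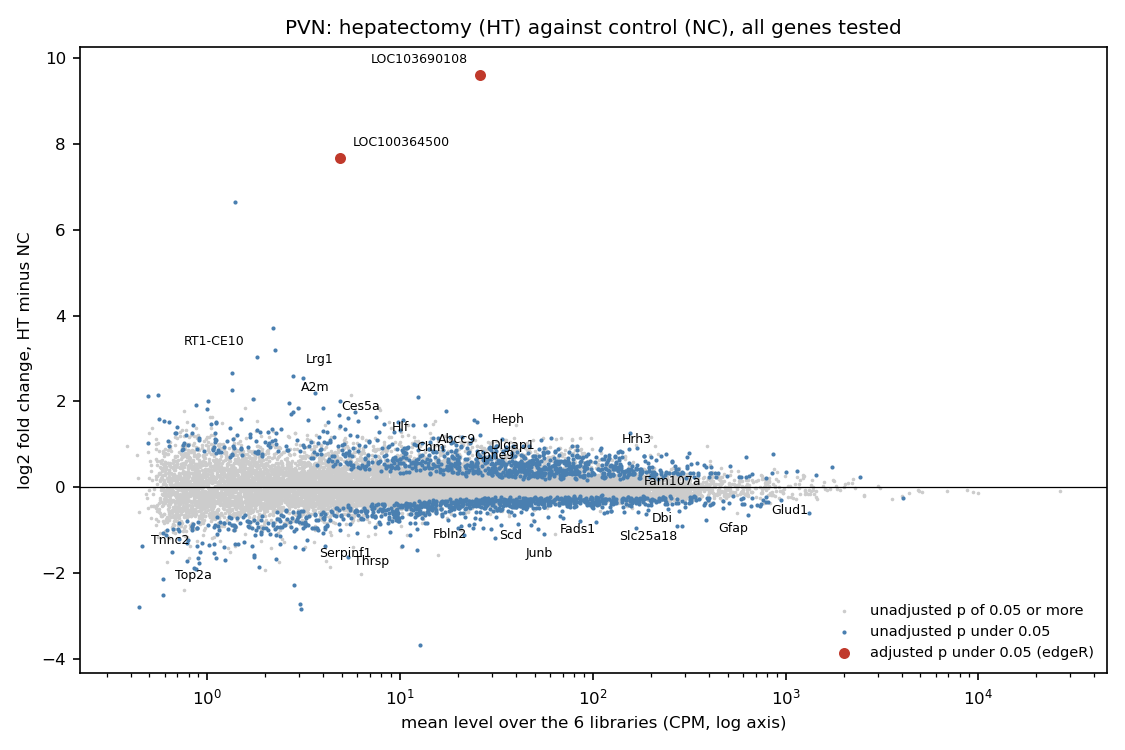
Log2 fold change of HT over NC (vertical axis) against the mean level in CPM over the 6 libraries (log axis), 1 point for each of the 16727 genes tested. The 2 genes with an adjusted p under 0.05 are the highest points, with an assembled transcript that did not pass close below them, and have fitted values that depend on the prior count because NC was at or near 0, and labels mark named genes in each direction.

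Several peptide hormone genes of the hypothalamus were lower after hepatectomy. Of 17 tested neuropeptide genes, 6 (35.3%) were lower at an unadjusted p under 0.05, against 5.35% of all genes, and 0 were higher. Only 2 of the 17 had a positive fold change, and the median log2 fold change was -0.39, against -0.01 over all genes tested. Crh, which encodes CRH and starts the stress axis, was at 12.9, 8.50 and 13.04 CPM in NC and at 7.75, 7.81 and 4.52 CPM in HT. All 3 HT libraries lay below the lowest control, which was NC replicate 2. The log2 fold change of Crh was -0.78 (SE 0.27, unadjusted p = 0.0209). The Crh level was 9.97 ± 0.641 CPM in EA and 8.56 ± 0.531 CPM in SEA (SD, n = 3).

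Trh, for thyrotropin-releasing hormone, which drives the thyroid axis, was at 155, 105 and 135 CPM in NC and at 89.7, 78.8 and 57.6 CPM in HT (log2 fold change -0.80, SE 0.19). Avp, for vasopressin, was at 292, 313 and 394 CPM in NC and at 227, 273 and 182 CPM in HT (log2 fold change -0.55, SE 0.17). Neither gene overlapped between the groups. Sst, for somatostatin, which inhibits growth hormone release, was at 484, 228 and 419.7 CPM in NC and at 214, 223 and 173 CPM in HT (log2 fold change -0.89, SE 0.26), so that NC replicate 2 lay just above the HT libraries and far below the other controls. Ghrh, for growth hormone-releasing hormone, was at 6.81, 4.86 and 5.91 CPM in NC and at 3.13, 1.55 and 2.13 CPM in HT (log2 fold change -1.36, SE 0.29), and DESeq2 called it (adjusted p = 0.0497). Penk, the enkephalin precursor, overlapped between the groups, with 272, 167 and 246 CPM in NC and 159, 176 and 181 CPM in HT.

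Oxt, for oxytocin, passed neither threshold (log2 fold change -0.58, SE 0.44, unadjusted p = 0.223). Its level was 604, 585 and 816 CPM in NC and 578, 602 and 158 CPM in HT, and HT replicate 3 alone was low. The count of 6 lower neuropeptide genes was 4, 10 and 5 without NC replicates 1, 2 and 3, and 6, 5 and 5 without HT replicates 1, 2 and 3. The list median was -0.20, -0.60 and -0.36 without NC replicates 1, 2 and 3, and -0.38 to -0.39 without an HT replicate. Without NC replicate 2, 7 of the 17 passed the adjusted threshold of edgeR, all lower, among them Crh (adjusted p = 0.0322), Trh (adjusted p = 0.00969) and Sst (adjusted p = 0.00118). In bulk tissue, fewer cells of a type and less RNA per cell cannot be told apart.

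The transcription factors that mark the PVN gave 1 call in 15, a lower one (6.67%, near the 5.35% of all genes). Sim1, needed for the nucleus to form, was at 14.3, 13.9 and 10.2 CPM in NC and at 16.8, 12.1 and 12.2 CPM in HT. Otp, which acts beside it, was at 29.4, 31.9 and 29.1 CPM in NC and at 29.1, 25.3 and 24.8 CPM in HT (log2 fold change -0.19, SE 0.11). Both were present in all 6 libraries, as were Crh, Avp, Oxt and Trh. The 15 factors summed to 387.5, 393.2 and 375.9 CPM in NC and to 397.8, 383.4 and 402.1 CPM in HT, with overlap. Without NC replicate 2, 1 factor was higher and 3 were lower. The member called was Fezf1, a factor of the neighbouring ventromedial nucleus, at 27.7, 19.3 and 22.8 CPM in NC and at 15.8, 14.8 and 14.4 CPM in HT.

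Receptors and modifiers of the stress axis gave 1 higher and 1 lower of 18 (5.56% each), near the 5.69% and 5.35% of all genes, and 4 higher and 2 lower without NC replicate 2. Crhr2, a CRH-family receptor that binds urocortins, was lower, at 13.2, 6.996 and 8.98 CPM in NC and at 6.75, 5.19 and 3.45 CPM in HT (log2 fold change -0.92, SE 0.31). Pcsk2, a convertase that cleaves peptide precursors, was higher, at 199, 275 and 226 CPM in NC and at 306, 307 and 292 CPM in HT (log2 fold change 0.37, SE 0.12). Neither overlapped between the groups. Crhr1, the main CRH receptor of the pituitary, had a log2 fold change of -0.01 (SE 0.25), with 4.63, 6.42 and 7.76 CPM in NC and 4.88, 7.27 and 6.59 CPM in HT. Crhbp, which binds and holds back CRH, had a value of -0.30 (SE 0.18). Nr3c2, the mineralocorticoid receptor, overlapped between the groups, with 3.44, 9.14 and 5.10 CPM in NC and 9.88, 9.83 and 7.78 CPM in HT.

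Among the immediate early genes, which neurons switch on within minutes of activity, 7 of 22 tested (31.8%) were lower in HT at an unadjusted p under 0.05, against 5.35% of all genes, and 1 was higher. In 9 the HT libraries all lay below the NC libraries, which held for 8.76% of all genes. Their summed level was 656.3, 684.4 and 748.8 CPM in NC and 540.6, 525.2 and 559.6 CPM in HT, without overlap. Junb, a subunit of the AP-1 transcription factor, was at 48.4, 56.3 and 52.8 CPM in NC and at 34.02, 23.4 and 30.2 CPM in HT (log2 fold change -0.84, SE 0.15), and DESeq2 called it (adjusted p = 0.002). Fos, another AP-1 subunit and the usual marker of recently active neurons, was at 24.7, 31.3 and 32.3 CPM in NC and at 21.01, 14.9 and 12.1 CPM in HT (log2 fold change -0.88, SE 0.22). The zinc finger factor gene Egr1 was at 50.5, 65.5 and 71.2 CPM in NC and at 40.1, 28.5 and 40.9 CPM in HT (log2 fold change -0.77, SE 0.18).

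The nuclear receptor gene Nr4a1 was at 21.5, 28.04 and 38.01 CPM in NC and at 16.5, 9.09 and 15.2 CPM in HT (log2 fold change -1.10, SE 0.28). Npas4, a factor that responds to calcium entry in neurons, was at 2.25, 3.06 and 2.38 CPM in NC and at 1.31, 1.55 and 0.879 CPM in HT. Ier2 had a log2 fold change of -0.52 (SE 0.16), and Arc, which encodes a protein of dendrites and synapses, had -0.67 (SE 0.23). In all 7 genes the groups were apart, NC replicate 2 included. Homer1, a postsynaptic scaffold that also responds to activity, was the member that was higher, with 8.53, 14.9 and 12.8 CPM in NC and 20.5, 17.8 and 14.6 CPM in HT. The count of 7 lower was 9, 10 and 6 without NC replicates 1, 2 and 3, and 8, 7 and 9 without HT replicates 1, 2 and 3. The count of 1 higher was 0, 3 and 0, and then 0, 0 and 1. The whole list summed to 503.3, 541.8 and 692.5 CPM in the EA libraries and to 581.2, 547.6 and 608.2 CPM in the SEA libraries.

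RefSeq promoters (GRCr8) were found for 17 of the 22 immediate early genes. The cyclic AMP response element TGACGTCA, which is its own reverse complement, stood in the 250 bases before the start of 4 of these 17 (23.5%), compared with 1.59% of all 33469 promoters. The CArG box, the site of serum response factor, was searched on both strands and stood in 3 (17.6%), compared with 1.5% of all promoters. A match describes letters in this window and is not a measured site. The Ier2 promoter is shown because it holds the element nearest to the start among genes of the list, and Ier2 was lower in HT. Capitals mark the element, whose first base is at -66 from the start.
Ier2, chr19:40399123-40399372, plus strand: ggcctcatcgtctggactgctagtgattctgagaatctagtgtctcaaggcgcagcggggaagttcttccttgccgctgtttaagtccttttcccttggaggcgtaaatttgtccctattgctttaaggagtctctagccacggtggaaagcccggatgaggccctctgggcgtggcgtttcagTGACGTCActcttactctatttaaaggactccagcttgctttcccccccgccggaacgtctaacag

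Several genes of the circadian clock and its output were higher in HT. Of 19 tested, 8 (42.1%) were higher and 0 were lower at an unadjusted p under 0.05, against 5.69% higher over all genes, and the median log2 fold change was 0.33. The summed level was 883, 1054 and 935.7 CPM in NC and 1155, 1217 and 1179 CPM in HT, without overlap. Hlf, Tef and Dbp encode the PAR bZIP factors that carry clock timing to other genes. Hlf was at 6.28, 11.2 and 8.11 CPM in NC and at 19.7, 17.98 and 14.9 CPM in HT (log2 fold change 1.03, SE 0.23), and DESeq2 called it (adjusted p = 0.0244). Tef was at 208, 238 and 210.2 CPM in NC and at 270.2, 267 and 287 CPM in HT (log2 fold change 0.33, SE 0.08). Dbp was at 112, 109 and 125 CPM in NC and at 140.3, 204 and 137 CPM in HT (log2 fold change 0.48, SE 0.16). None of these genes overlapped between the groups.

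Nr1d2, which encodes the clock repressor REV-ERB beta, was at 93.01, 108 and 84.8 CPM in NC and at 127, 128 and 127 CPM in HT, a log2 fold change of 0.42 (SE 0.10) with little spread in HT. Nr1d1, its paralog, was at 42.5, 42.6 and 49.9 CPM in NC and at 58.9, 62.3 and 48.2 CPM in HT, and there the groups overlapped. Bhlhe41 (log2 fold change 0.40, SE 0.14), Cry2 (0.33, SE 0.12) and Per2 (0.29, SE 0.11) were higher without overlap. Arntl, the activator that drives these genes and is itself repressed by REV-ERB proteins, lay on the other side, at 34.3, 30.01 and 31.5 CPM in NC and at 27.4, 24.8 and 28.8 CPM in HT (log2 fold change -0.24, SE 0.11, unadjusted p = 0.0585). Per1, which glucocorticoids also induce, was at 35.5, 71.3 and 54.98 CPM in NC and at 48.3, 40.7 and 82.6 CPM in HT. Its log2 fold change of 0.08 (SE 0.32) was -0.15 without NC replicate 1 and -0.28 without HT replicate 3.

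The number of higher clock genes was 5, 13 and 6 without NC replicates 1, 2 and 3, and 4, 3 and 6 without HT replicates 1, 2 and 3. The list median stayed above 0 in each of these omissions. Without NC replicate 2, 8 of the 19 passed the adjusted threshold of edgeR, all higher. The EA and SEA libraries stood at 1122 to 1231 CPM for the list, above the highest control. The methods of the study have all brains taken at 1 time, and the hour of the day is not given in the sources used here.

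Promoters are shown for 4 clock genes that were higher in HT. Of 17 members with a RefSeq promoter, 5 (29.4%) held the E-box CACGTG, the site of clock activators and its own reverse complement, in the 250 bases before the start. Of all promoters 5.59% did, and of the 17 immediate early genes 1 (5.88%). The D-box TTATGTAA, the site of PAR bZIP factors, was searched on both strands and stood in 1 of the 17 clock promoters (5.88%), compared with 0.828% of all promoters. The members with an E-box were Tef, Bhlhe41, Nr1d1, Ciart and Bhlhe40, and the member with the D-box was Per2. Capitals mark the E-box in Tef, Bhlhe41 and Nr1d1 and the D-box in Per2, with first bases at -198, -48, -191 and -192 from the start.
Tef, chr7:115206577-115206826, plus strand: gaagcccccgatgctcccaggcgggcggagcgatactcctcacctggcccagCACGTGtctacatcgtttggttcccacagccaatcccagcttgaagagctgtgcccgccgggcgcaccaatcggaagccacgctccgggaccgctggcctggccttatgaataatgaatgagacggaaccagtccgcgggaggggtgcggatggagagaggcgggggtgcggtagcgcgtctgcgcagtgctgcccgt
Bhlhe41, chr4:180569356-180569605, minus strand: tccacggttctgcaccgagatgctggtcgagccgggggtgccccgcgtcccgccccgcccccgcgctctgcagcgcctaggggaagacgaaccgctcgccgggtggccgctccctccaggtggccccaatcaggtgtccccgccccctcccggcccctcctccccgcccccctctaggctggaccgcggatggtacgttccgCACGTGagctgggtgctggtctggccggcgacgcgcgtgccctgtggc
Nr1d1, chr10:84229455-84229704, minus strand: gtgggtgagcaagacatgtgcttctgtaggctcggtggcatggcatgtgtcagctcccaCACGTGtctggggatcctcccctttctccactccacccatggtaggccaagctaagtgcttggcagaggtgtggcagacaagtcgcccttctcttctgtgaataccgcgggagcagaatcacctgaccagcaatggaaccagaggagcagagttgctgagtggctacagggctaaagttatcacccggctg
Per2, chr9:99496994-99497243, minus strand: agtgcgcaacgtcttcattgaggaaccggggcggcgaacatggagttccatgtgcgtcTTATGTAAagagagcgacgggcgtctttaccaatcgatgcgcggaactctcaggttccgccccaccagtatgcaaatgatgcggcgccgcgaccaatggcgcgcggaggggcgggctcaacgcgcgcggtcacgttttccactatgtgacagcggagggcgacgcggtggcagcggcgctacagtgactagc

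**Figure D2:**
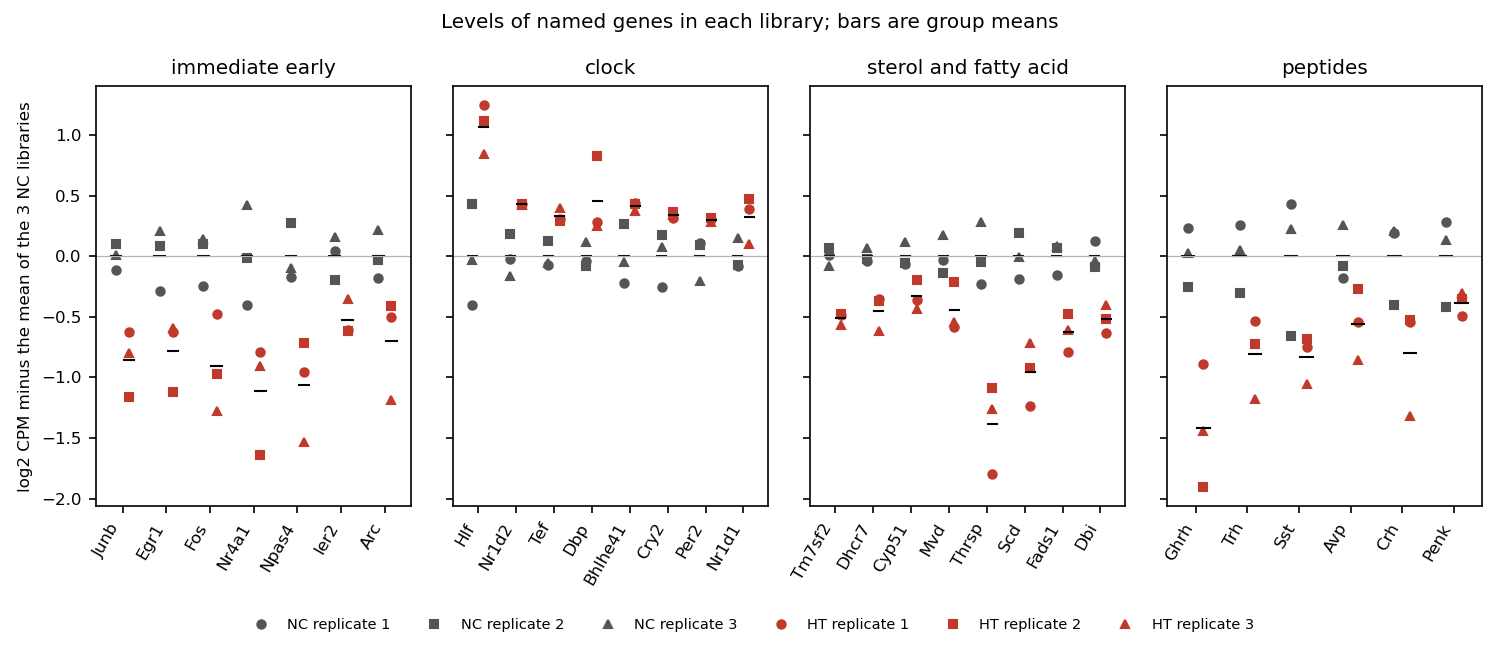
Level of named immediate early, clock, sterol and fatty acid, and peptide genes in each NC library (grey) and HT library (red), as log2 CPM minus the mean of the 3 NC libraries, with a symbol for each replicate and bars for group means. The HT means lie above the control mean in the clock panel and below it in the other panels, and in Sst and Penk NC replicate 2 (grey square) lies at the level of the HT libraries.

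Of 22 tested genes of cholesterol synthesis, 7 (31.8%) were lower in HT at an unadjusted p under 0.05, against 5.35% of all genes, and 1 was higher. The median log2 fold change was -0.15, and the summed level overlapped between the groups, with 2642, 2915 and 3026 CPM in NC and 2466, 2835 and 2454 CPM in HT. The reductase genes Tm7sf2 and Dhcr7 act late in the pathway. Tm7sf2 was at 21.8, 22.6 and 20.4 CPM in NC and at 15.4, 15.5 and 14.6 CPM in HT (log2 fold change -0.51, SE 0.11). Dhcr7 was at 34.9, 35.2 and 37.4 CPM in NC and at 27.95, 27.7 and 23.4 CPM in HT (log2 fold change -0.44, SE 0.11). Cyp51, the lanosterol demethylase, was at 255, 256 and 288 CPM in NC and at 208, 232 and 197 CPM in HT (log2 fold change -0.33, SE 0.09). The groups did not overlap in these genes, nor in Mvd (log2 fold change -0.44), Hmgcs1 (-0.38), Nsdhl (-0.35) and Msmo1 (-0.29), the other lower members. Mvk, the mevalonate kinase, was the member that was higher (0.36, SE 0.12). The count of 7 lower was 8, 8 and 5 without NC replicates 1, 2 and 3, and 4, 9 and 4 without HT replicates 1, 2 and 3.

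Enzymes and regulators of fatty acid synthesis, a list added after the values were seen, gave 8 of 21 lower (38.1%, against 5.35% of all genes) and 0 higher, with a median log2 fold change of -0.06. Thrsp, a regulator of lipogenesis that thyroid hormone induces, was at 12.4, 14.1 and 17.7 CPM in NC and at 4.19, 6.87 and 6.09 CPM in HT (log2 fold change -1.37, SE 0.23). The desaturase gene Scd was at 30.96, 40.3 and 34.9 CPM in NC and at 14.9, 18.5 and 21.5 CPM in HT (log2 fold change -0.95, SE 0.17). Fads1, the delta-5 desaturase of polyunsaturated fatty acids, was at 205, 238 and 241 CPM in NC and at 131, 163 and 149 CPM in HT (log2 fold change -0.62, SE 0.11). Dbi, the acyl-CoA binding protein whose peptides also act on GABA receptors, was at 247, 213 and 220.4 CPM in NC and at 146, 158 and 171 CPM in HT (log2 fold change -0.52, SE 0.10). The NC and HT libraries were apart in these genes, NC replicate 2 included. DESeq2 called all of them, with an adjusted p of 0.000209 for Thrsp, 0.00115 for Scd, 0.00772 for Fads1 and 0.0218 for Dbi. Acss2 (log2 fold change -0.45), Fads2 (-0.32), Slc25a1 (-0.33) and Scd2 (-0.26) were the other lower members. Leaving out NC replicates 1, 2 and 3 gave 7, 8 and 6 lower, and leaving out HT replicates 1, 2 and 3 gave 5, 7 and 6.

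Of 15 astrocyte markers, 3 (20%) were lower at an unadjusted p under 0.05, against 5.35% of all genes, and 0 were higher. The fold change was positive in 9 of the 15, and the median was 0.03. Gfap, the intermediate filament of astrocytes, was at 473, 536 and 439 CPM in NC and at 235, 319 and 304 CPM in HT (log2 fold change -0.75, SE 0.13), and DESeq2 called it (adjusted p = 0.00184). Its level was 368 ± 4.10 CPM in EA and 366 ± 33.1 CPM in SEA (SD, n = 3). Slc7a10, a transporter of D-serine and other small amino acids, was at 103, 92.3 and 92.99 CPM in NC and at 70.03, 84.2 and 71.8 CPM in HT (log2 fold change -0.35, SE 0.10). The water channel gene Aqp4 overlapped between the groups (log2 fold change -0.38, SE 0.14). These were the 3 lower members. Slc1a2, the main glutamate transporter of astrocytes, was at 55.2, 293 and 75.7 CPM in NC and at 284, 260.2 and 288 CPM in HT (log2 fold change 0.97, SE 0.56, unadjusted p = 0.123), with NC replicate 2 far above the other controls. The list summed to 7082 to 7129 CPM in NC and to 6339 to 7634 CPM in HT. The count of 3 was 3, 5 and 3 without NC replicates 1, 2 and 3, and 2, 2 and 4 without HT replicates 1, 2 and 3, and 3 markers were higher without NC replicate 2.

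Among the lower genes of smallest p, Slc25a18, a mitochondrial glutamate carrier, was at 156, 139 and 147 CPM in NC and at 94.7, 109 and 97.8 CPM in HT (log2 fold change -0.55, SE 0.09). Glud1, the glutamate dehydrogenase, was at 754, 767 and 750.1 CPM in NC and at 530.2, 587 and 569 CPM in HT (log2 fold change -0.43, SE 0.07). The 3 controls lay close to each other in Glud1 and all above the HT libraries. Serpinf1, which encodes the secreted factor PEDF, was at 4.83, 4.28 and 4.58 CPM in NC and at 1.38, 1.75 and 1.95 CPM in HT (log2 fold change -1.43, SE 0.23). Fbln2, a matrix protein, was at 37.4, 30.4 and 29.3 CPM in NC and at 18.5, 18.7 and 21.3 CPM in HT (log2 fold change -0.73, SE 0.13). DESeq2 called these 4 genes, with an adjusted p of 0.00416 for Slc25a18, 0.0125 for Glud1 and 0.0119 for both Serpinf1 and Fbln2. Tnnc2, a troponin of skeletal muscle, was low throughout, with 2.12, 1.74 and 2.09 CPM in NC and 0.875, 0.808 and 0.690 CPM in HT, and DESeq2 did not call it (adjusted p = 0.362).

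Genes of cell division, a list also added after the values were seen, had low levels in all libraries. Of 19 tested, 8 were lower (42.1%, against 5.35% of all genes) and 0 were higher, and the median log2 fold change was -0.48. Top2a, a topoisomerase of dividing cells, was at 1.59, 2.26 and 1.80 CPM in NC and at 0.625, 0.741 and 0.377 CPM in HT (log2 fold change -1.69, SE 0.34). Bub1, a kinase of the spindle checkpoint, was at 1.65, 1.45 and 1.74 CPM in NC and at 0.563, 0.404 and 0.690 CPM in HT (log2 fold change -1.53, SE 0.32). The DESeq2 adjusted p was 0.262 for Top2a and 0.359 for Bub1. The count of 8 was 5, 9 and 6 without NC replicates 1, 2 and 3, and 5, 5 and 6 without HT replicates 1, 2 and 3.

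Among the higher genes of smallest p, Heph, hephaestin, a copper enzyme that oxidizes iron for its export from cells, was at 14.5, 16.9 and 15.6 CPM in NC and at 38.8, 31.2 and 38.6 CPM in HT (log2 fold change 1.21, SE 0.13). Its adjusted p was 0.0873 with edgeR, 2.22e-09 with DESeq2, and 0.00121 with edgeR when NC replicate 2 was left out. Heph was at 41.2 ± 7.79 CPM in EA and 31.4 ± 4.71 CPM in SEA (SD, n = 3). Hrh3, the inhibitory histamine receptor of neurons, was at 80.9, 88.98 and 90.7 CPM in NC and at 143, 132 and 159 CPM in HT (log2 fold change 0.74, SE 0.10), with an adjusted p of 0.253 with edgeR and 2.16e-05 with DESeq2. The level of Hrh3 was 112 ± 5.0 CPM in EA and 98.4 ± 15.6 CPM in SEA (SD, n = 3). In both genes the HT libraries lay above all NC libraries, NC replicate 2 included.

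Lrg1 and A2m encode secreted proteins that belong to the acute phase response of the liver. Lrg1 was at 0.860, 0.925 and 0.579 CPM in NC and at 2.88, 4.65 and 6.90 CPM in HT (log2 fold change 2.60, SE 0.39), with an adjusted p of 0.393 with edgeR and 3.84e-05 with DESeq2. A2m was at 0.926, 1.16 and 1.16 CPM in NC and at 2.69, 3.37 and 6.59 CPM in HT (log2 fold change 1.95, SE 0.39, DESeq2 adjusted p = 0.0132). The groups were apart in both genes. Of 19 tested genes on the acute phase and cytokine list, A2m was the only member higher at an unadjusted p under 0.05, 1 was lower, and the median was 0.07. These shares of 5.26% each lay near the 5.69% higher and 5.35% lower of all genes. The lower one was C3, the central complement protein, at 8.60, 14.5 and 9.79 CPM in NC and at 5.94, 8.35 and 5.52 CPM in HT.

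Ces5a, a carboxylesterase, was at 1.79, 2.43 and 2.38 CPM in NC and at 5.94, 6.87 and 6.09 CPM in HT (log2 fold change 1.51, SE 0.21), with an adjusted p of 0.298 with edgeR and 0.000267 with DESeq2. Abcc9, a potassium channel subunit of pericytes, was at 17.1, 24.98 and 22.9 CPM in NC and at 34.9, 39.8 and 33.6 CPM in HT (log2 fold change 0.74, SE 0.16). Tek, the angiopoietin receptor of endothelium, was the other vessel marker of 16 that was higher (12.5% with Abcc9, against 5.69% of all genes), and 0 were lower. The higher count was 1, 4 and 1 without NC replicates 1, 2 and 3, and 1, 1 and 4 without HT replicates 1, 2 and 3. In these omissions 0 or 1 were lower. Fam107a (log2 fold change 0.39, SE 0.08), the copine gene Cpne9 (0.46, SE 0.10) and Chm, a Rab escort protein (0.55, SE 0.12), were higher without overlap, and DESeq2 did not call them.

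The 2 genes past the adjusted threshold of edgeR are described in the table as class I histocompatibility genes and lie on chromosome 20. LOC103690108 (ENSRNOG00000047706, 3791407 to 3794027 in the coordinates of the table, whose build is not named) was at 0, 0.174 and 0 CPM in NC and at 36.7, 43.03 and 76.9 CPM in HT (adjusted p = 0.009). LOC100364500 (ENSRNOG00000048951, 2704148 to 2707120) was at 0.0662, 0.0578 and 0 CPM in NC and at 7.25, 6.60 and 15.3 CPM in HT (adjusted p = 0.0334). NC held 3 counts in all for LOC103690108 and at most 1 count in a library for LOC100364500, so no fold is given. The EA and SEA rats were operated too. LOC103690108 was at 37.8, 33.8 and 36.2 CPM in EA and at 0, 0.0680 and 72.2 CPM in SEA, so that all 3 EA libraries held it and 1 of the 3 SEA libraries held nearly all of that group's. LOC100364500 was at 5.86, 5.39 and 6.96 CPM in EA and at 0.0629, 0.136 and 14.3 CPM in SEA. In the amygdala libraries of the study LOC103690108 was also higher in HT than in NC (edgeR, unadjusted p = 8.03e-06). Neither gene kept its adjusted call without NC replicate 1 (adjusted p = 0.0792 for LOC103690108 and 0.166 for LOC100364500) or without NC replicate 3 (0.155 and 0.371). LOC100364500 also lost it without HT replicate 1 (0.098) and without HT replicate 2 (0.0585). RT1-CE10, of the same family, was at 0.794, 0.0578 and 0.348 CPM in NC and at 3.13, 2.36 and 4.21 CPM in HT. In the other direction RT1-T24-4 was at 18.7, 13.9 and 21.4 CPM in NC and at 5.69, 11.4 and 2.64 CPM in HT, and RT1-S3 had a log2 fold change of -0.88 (SE 0.29). Of 19 tested RT1 genes, 1 was higher (5.26%, near the 5.69% of all genes) and 2 were lower (10.53%, against 5.35%). The higher count was 3, 5 and 3 without NC replicates 1, 2 and 3, and 1, 2 and 1 without HT replicates 1, 2 and 3, and the lower count was 2, 4, 2, 1, 2 and 1. RT1-T24-4 was at 8.62, 11.55 and 2.95 CPM in EA and at 31.9, 19.3 and 5.92 CPM in SEA. RT1-S3 was at 29.8, 26.0 and 13.5 CPM in EA and at 65.0, 46.5 and 18.6 CPM in SEA. Within SEA, replicate 3 was thus the lowest in RT1-T24-4 and RT1-S3 and the highest in LOC103690108 and LOC100364500. Genes of this family share sequence, so that counting can split reads among them, and these values are uncertain. The cause of the differences in these genes was not tested.

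Other immune genes gave calls in both directions. Of 21 interferon response genes, 5 (23.8%) were lower, against 5.35% of all genes, and 0 higher at an unadjusted p under 0.05 (median log2 fold change -0.27). Irf9, part of the factor that turns these genes on, was at 24.2, 23.5 and 18.8 CPM in NC and at 15.8, 16.8 and 16.8 CPM in HT (log2 fold change -0.43, SE 0.14). Dhx58, Oas1a, Usp18 and Irf7 had log2 fold changes of -0.54, -0.92, -0.80 and -0.66. The count of 5 was 1, 2 and 8 without NC replicates 1, 2 and 3, and 2, 6 and 2 without HT replicates 1, 2 and 3, and 2 were higher without NC replicate 2. Of 13 genes of antigen presentation, 2 were lower (15.4%), a count that was 0, 5 and 2 without NC replicates 1, 2 and 3 and 1 without each HT replicate. B2m, the light chain of class I molecules, was at 498, 415 and 394 CPM in NC and at 332, 362 and 369 CPM in HT, and Cd74, the invariant chain of class II, was at 6.02, 4.74 and 4.23 CPM in NC and at 3.94, 2.36 and 2.95 CPM in HT. Of 14 microglia markers, 1 was higher (7.14%, near the 5.69% of all genes, Tmem119, log2 fold change 0.42, SE 0.14) and 0 were lower.

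Genes of the synapse gave many more higher than lower calls, but there NC replicate 2 stood near the operated rats. Of 28 postsynaptic scaffolds and kinases, 9 were higher (32.1%, against 5.69% of all genes) and 0 were lower at an unadjusted p under 0.05, and 26 had a positive fold change (median 0.42). Their summed level was 3116, 4344 and 3404 CPM in NC and 4798, 4694 and 4225 CPM in HT, so that NC replicate 2 lay above HT replicate 3. Dlgap1, a scaffold protein, had the smallest p, at 91.4, 112 and 96.2 CPM in NC and at 136, 137 and 128 CPM in HT (log2 fold change 0.42, SE 0.10). Camk2a, the kinase of synaptic plasticity, was at 70.5, 146 and 76.7 CPM in NC and at 169, 166 and 154 CPM in HT (log2 fold change 0.74, SE 0.26). Shank3, a scaffold of excitatory synapses, was at 101, 269 and 159 CPM in NC and at 320, 336 and 252 CPM in HT, and the groups overlapped. Iqsec2, an exchange factor at these synapses, had a log2 fold change of 0.42 (SE 0.12).

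On the presynaptic side, 8 of 31 genes of vesicle release (25.8%) were higher, against 5.69% of all genes, and 0 were lower (median 0.23). Bsn and Pclo, giant scaffolds of the active zone, had log2 fold changes of 0.62 (SE 0.23) and 0.68 (SE 0.27). Syn2, a synapsin of the vesicle surface, was at 129, 181 and 158 CPM in NC and at 218, 212 and 176 CPM in HT (log2 fold change 0.38, SE 0.14). Voltage-gated sodium and calcium channels gave 11 of 36 higher (30.6%) and 0 lower (median 0.32). Scn8a, a sodium channel of the axon initial segment, was at 43.5, 129.5 and 58.2 CPM in NC and at 145, 133 and 143 CPM in HT (log2 fold change 0.86, SE 0.36). Cacna2d3, an auxiliary calcium channel subunit, was at 44.9, 61.1 and 51.9 CPM in NC and at 67.2, 69.2 and 68.8 CPM in HT (log2 fold change 0.38, SE 0.12). Potassium channels gave 6 of 26 higher (23.1%) and 2 lower (7.69%, against 5.35% of all genes) (median 0.31). Kcnc2, a fast channel of rapidly firing neurons, was at 57.6, 135 and 102 CPM in NC and at 198, 177 and 145 CPM in HT (log2 fold change 0.82, SE 0.28), and the lower members were Kcnh4 (-0.46) and Kcnh3 (-0.65). NC replicate 2 was the highest control in Syn2, Scn8a, Cacna2d3 and Kcnc2.

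All 7 metabotropic glutamate receptors had a positive fold change, and 3 (42.9%) were higher at an unadjusted p under 0.05, among them Grm2 (log2 fold change 0.63, SE 0.26) and Grm3 (0.65, SE 0.27). Grm3 was at 24.01, 54.4 and 41.5 CPM in NC and at 66.9, 70.2 and 51.2 CPM in HT. Of 18 ionotropic glutamate receptors 1 was higher (5.56%), near the 5.69% of all genes, and without NC replicate 2 it was 9, of which 8 passed the adjusted threshold of edgeR. In the other 5 omissions it was 0. Genes of GABA and glycine transmission gave 7 of 27 higher (25.9%) and 0 lower (median 0.28), and these were all subunits of the GABA-A receptor. Gabra4 was at 42.4, 74.8 and 65.99 CPM in NC and at 118, 109 and 78.8 CPM in HT (log2 fold change 0.74, SE 0.23), and Gabrg3 had a value of 0.82 (SE 0.32). NC replicate 2 was the highest control in Grm3 and Gabra4.

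Of 37 opioid, monoamine and acetylcholine receptors, 7 were higher (18.9%, against 5.69% of all genes) and 1 was lower (2.70%, against 5.35%), with a median of 0.35. Beside Hrh3 the higher ones were the muscarinic receptors Chrm3 (log2 fold change 0.59, SE 0.18) and Chrm2 (0.88, SE 0.36), the serotonin receptors Htr1b (0.56, SE 0.21) and Htr1a (0.50, SE 0.21), the kappa opioid receptor Oprk1 (0.62, SE 0.20) and the adrenergic receptor Adra2b (1.29, SE 0.48). Hrh1, a histamine receptor of the excitatory kind, was the lower one (-0.40, SE 0.16). The mu opioid receptor gene Oprm1 was at 1.32, 13.1 and 3.30 CPM in NC and at 20.3, 14.4 and 8.66 CPM in HT, with NC replicate 2 inside the HT range. It passed neither threshold with all 6 libraries (unadjusted p = 0.111) and had an adjusted p of 0.00998 (edgeR) without NC replicate 2.

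Counts of higher genes in these groups moved with single libraries. Without NC replicate 2 there were 23 for the postsynaptic list, 17 for vesicle release, 19 for sodium and calcium channels and 14 for potassium channels. There were 16 for GABA and glycine transmission, 6 for metabotropic glutamate receptors and 19 for the other transmitter receptors. Lower genes then numbered 3 for GABA and glycine transmission, 4 for the other receptors, 1 each for vesicle release and both channel lists, and 0 for the postsynaptic and metabotropic lists. In the postsynaptic list and in the sodium and calcium channels, 17 each then passed the adjusted threshold of edgeR. Without NC replicate 1, NC replicate 3, HT replicate 1 or HT replicate 2, the postsynaptic list gave 3, 2, 3 and 2, vesicle release gave 0 each time, and sodium and calcium channels gave 2, 1, 1 and 2. For potassium channels these omissions gave 2, 3, 0 and 2, for GABA and glycine transmission 2, 1, 1 and 2, for metabotropic receptors 2, 2, 1 and 1, and for the other receptors 5, 2, 3 and 2. Without HT replicate 3 there were 10 for the postsynaptic list, 5 for vesicle release, 5 for sodium and calcium channels, 3 for potassium channels, 5 for GABA and glycine transmission, 3 for metabotropic receptors and 7 for the other receptors. The list medians stayed above 0 in all 6 omissions.

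**Figure D3:**
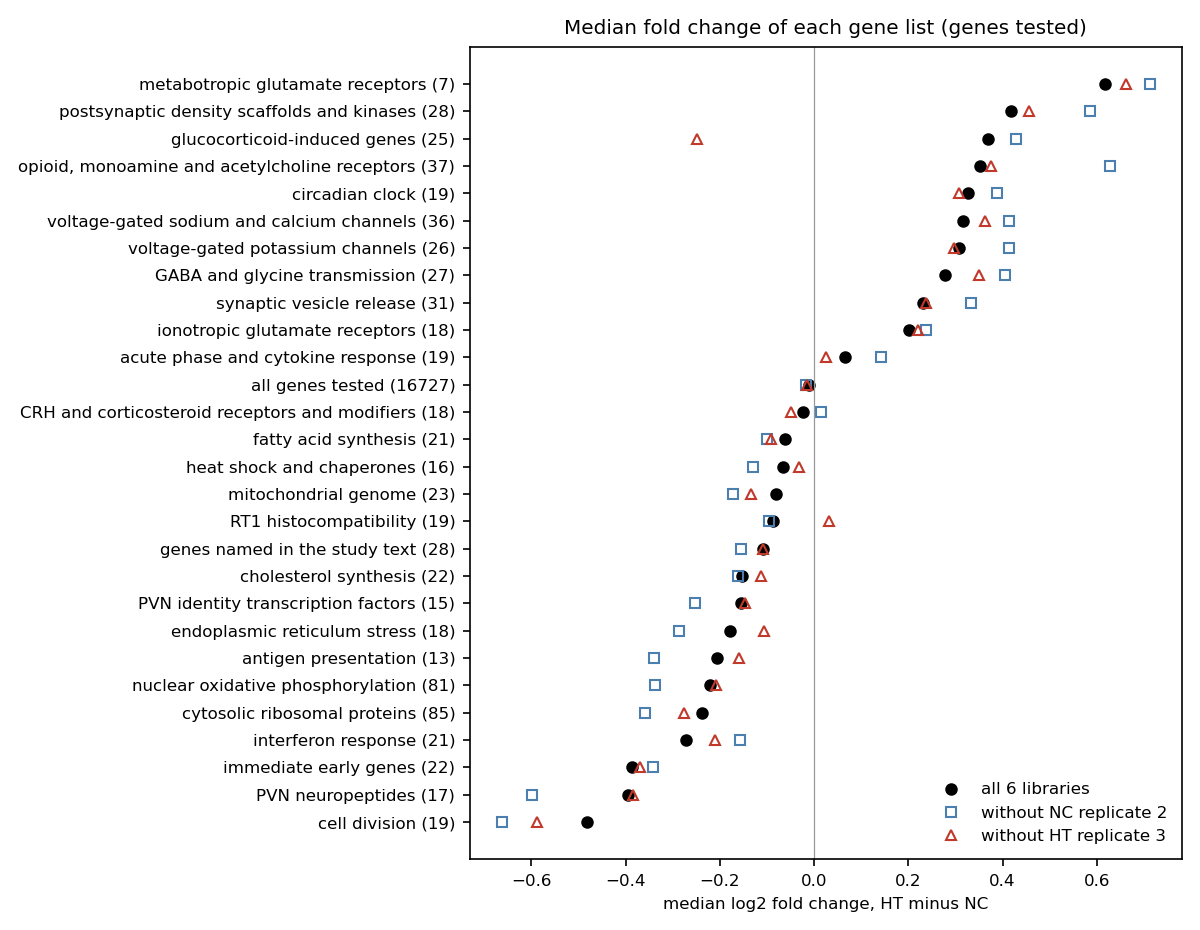
Median log2 fold change of HT over NC for each gene list, with the number of genes tested, from all 6 libraries (black circles), without NC replicate 2 (blue squares) and without HT replicate 3 (red triangles). Leaving out NC replicate 2 moves the synaptic and receptor lists up (postsynaptic genes from 0.42 to 0.59) and the ribosomal proteins down (from -0.24 to -0.36), and the glucocorticoid-induced list changes sign without HT replicate 3.

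Of 85 cytosolic ribosomal protein genes, 13 (15.3%) were lower and 0 higher at an unadjusted p under 0.05, against 5.35% lower over all genes (median -0.24). The list summed to 17310, 12990 and 16450 CPM in NC and to 12930, 12900 and 14000 CPM in HT. Rps23 was at 504, 339 and 442 CPM in NC and at 296, 342 and 336 CPM in HT (log2 fold change -0.40, SE 0.15). Of 81 nuclear genes of oxidative phosphorylation, 25 (30.9%) were lower and 0 higher (median -0.22), with sums of 15380, 12980 and 15640 CPM in NC and 12630, 13330 and 12710 CPM in HT. Ndufb7, a subunit of complex I, was at 115, 88.7 and 115 CPM in NC and at 81.3, 84.2 and 78.9 CPM in HT (log2 fold change -0.38, SE 0.12), and Uqcrq, of complex III, had a value of -0.38 (SE 0.12). In both lists the sum of NC replicate 2 lay within the range of the HT libraries. The ribosomal count was 2, 57 and 2 without NC replicates 1, 2 and 3 and 2, 2 and 5 without HT replicates 1, 2 and 3. The oxidative phosphorylation count was 4, 63 and 2, and then 2, 14 and 6. Of 23 genes tested on the mitochondrial genome, 0 were called at an unadjusted p under 0.05, whereas 10 were lower without NC replicate 2, 4 of them at the adjusted threshold of edgeR, and 0 to 2 in the other omissions. That genome took 7.58% to 8.77% of the counts in NC and 7.67% to 8.01% in HT.

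Fold changes moved with gene length. Over 10 bins of nearly equal size, the median log2 fold change was -0.10 in the shortest genes (median length 534 bases), -0.13 in the next bin (1062 bases) and 0.16 in the longest (6548 bases). The share of genes higher at an unadjusted p under 0.05 went from 3.41% in the shortest bin to 12.9% in the longest, and the share lower from 8.85% to 1.85%. In the longest bin NC replicates 1 and 3 stood at -0.17 and -0.15 from the mean of the 6 libraries on a log2 scale, NC replicate 2 at 0.09, and the HT libraries at 0.05 to 0.10. The ribosomal protein genes had a median length of 630 bases and those of oxidative phosphorylation 683 bases, against 2282 bases over all genes tested. The sodium and calcium channels had 4928 bases and the immediate early genes, clock genes and cholesterol genes had 2440, 2922 and 2997 bases. The neuropeptide genes had a median length of 1196 bases. The part of gene length in the neuropeptide, synaptic, ribosomal and respiratory results was not tested.

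**Figure D4:**
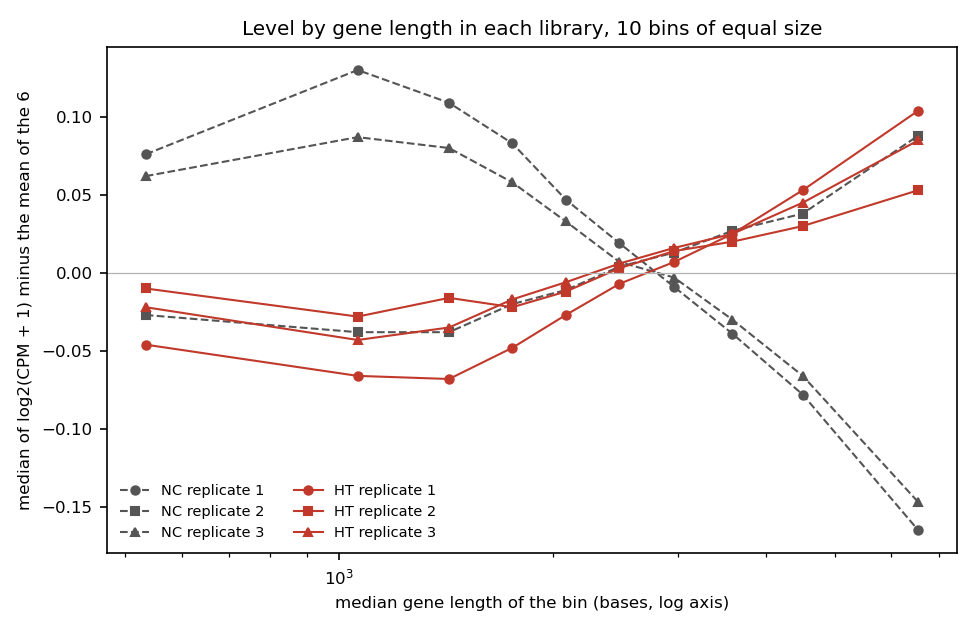
Median of log2(CPM + 1) minus the mean of the 6 libraries (vertical axis) in 10 bins of genes by the length given in the table (log axis), 1 line for each library. NC replicates 1 and 3 go from above 0 in short genes to -0.17 and -0.15 in the longest bin, and NC replicate 2 runs with the 3 HT libraries.

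The level of genes that glucocorticoids induce differed widely between HT libraries. The 25 tested genes summed to 559.8, 878.9 and 797.7 CPM in NC and to 545.1, 622.6 and 1894 CPM in HT, so that HT replicate 3 stood above all other PVN libraries and HT replicate 1 below them. The sums were 1235, 720.4 and 1117 CPM in EA and 636.4, 769.8 and 1311 CPM in SEA, so that 3 of these 6 also stood above the highest control. Fkbp5, a chaperone that dampens the glucocorticoid receptor and is a usual readout of it, was at 35.8, 33.1 and 30.4 CPM in NC and at 30.1, 30.2 and 101 CPM in HT. Its log2 fold change was 0.70 (SE 0.45, unadjusted p = 0.162) and -0.13 without HT replicate 3. Sgk1, a kinase of salt and stress responses, was at 25.9, 105 and 85.5 CPM in NC and at 25.1, 32.1 and 222 CPM in HT. The value for Sgk1 of 0.37 (SE 0.85) was -1.33 without HT replicate 3 and -0.03 without NC replicate 1. Gpd1, a glycerol phosphate enzyme, was at 79.3, 105 and 153 CPM in NC and at 55.1, 93.2 and 515 CPM in HT. Tsc22d3, which encodes GILZ, was at 81.5, 90.6 and 87.6 CPM in NC and at 67.03, 83.5 and 119 CPM in HT, and its log2 fold change of 0.05 was -0.20 without HT replicate 3.

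At an unadjusted p under 0.05, 3 of the 25 were higher (12%, against 5.69% of all genes) and 0 lower, and the list median of 0.37 was -0.25 without HT replicate 3. Sult1a1, a sulfotransferase, was at 8.80, 6.24 and 8.40 CPM in NC and at 17.6, 11.7 and 51.3 CPM in HT (log2 fold change 1.78, SE 0.52). Zbtb16, the transcription factor PLZF, was at 3.31, 6.59 and 4.06 CPM in NC and at 7.38, 9.97 and 42.8 CPM in HT (log2 fold change 2.10, SE 0.67). In both genes the other HT libraries also lay above the controls, whereas Hif3a, a hypoxia factor, overlapped, with 0.397, 1.74 and 0.579 CPM in NC and 1.44, 1.08 and 13.5 CPM in HT. The count of 3 was 2, 4 and 1 without NC replicates 1, 2 and 3, and 5, 4 and 2 without HT replicates 1, 2 and 3. Without HT replicate 3, 4 members were lower. HT replicate 3 also had the lowest Oxt, Crh and Trh of the 6 libraries. The EA libraries ranged from 720.4 to 1235 CPM for this list and the SEA libraries from 636.4 to 1311 CPM.

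**Figure D5:**
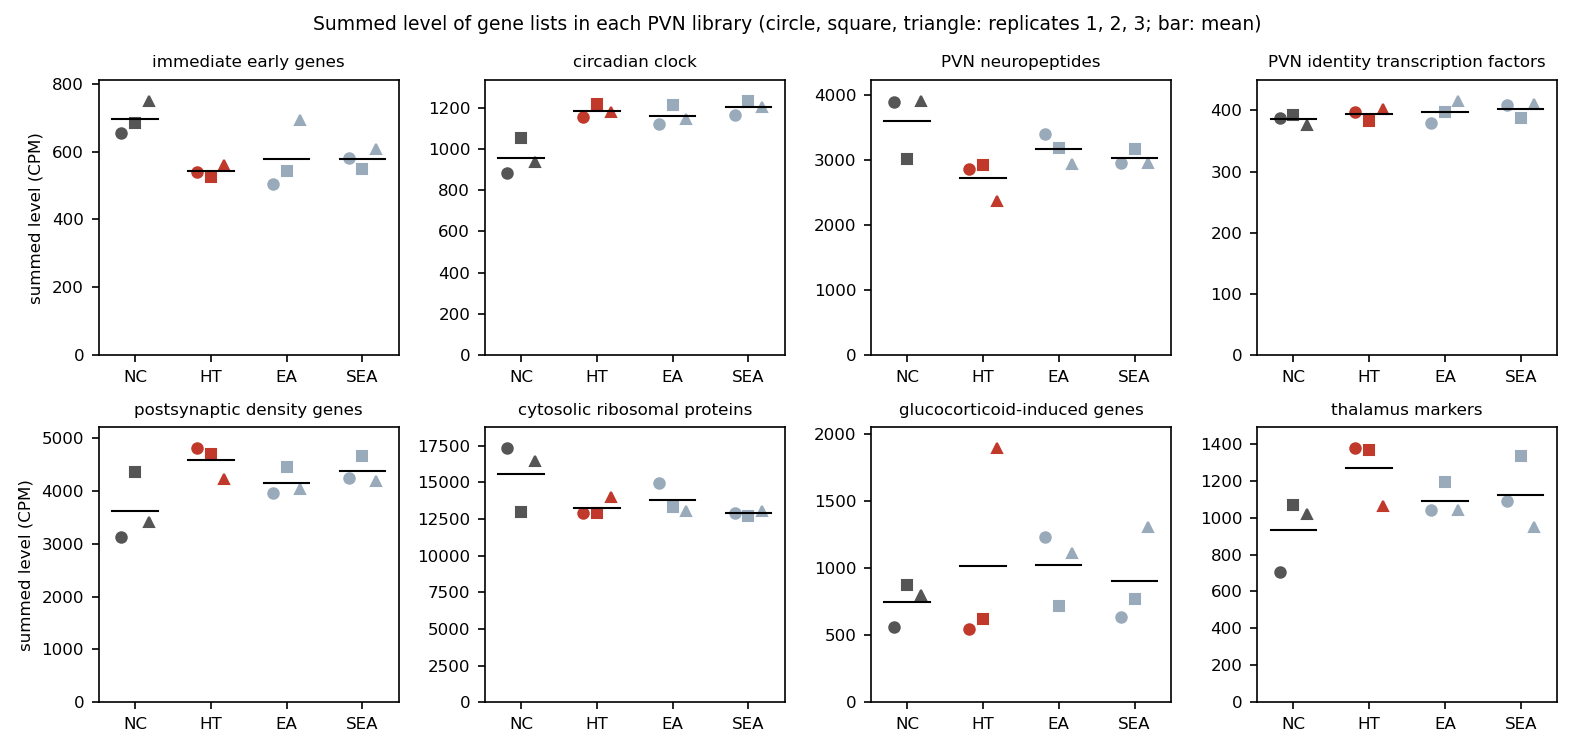
Summed level in CPM of 8 gene lists in each of the 12 PVN libraries by group (NC, HT, EA, SEA), with circles, squares and triangles for replicates 1, 2 and 3 and bars for means, and axes that start at 0. The immediate early, clock and neuropeptide sums separate the NC from the HT libraries, while the other 5 lists overlap between these groups.

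Markers of tissue around the PVN also differed between libraries. Of 16 thalamus markers, 5 (31.3%) were higher, against 5.69% of all genes, and 0 lower at an unadjusted p under 0.05 (median 0.68). Their sum was 705.5, 1070 and 1018 CPM in NC and 1374, 1366 and 1062 CPM in HT, with overlap. Synpo2 was at 5.03, 20.8 and 12.9 CPM in NC and at 45.7, 39.4 and 26.9 CPM in HT (log2 fold change 1.53, SE 0.45), and Prkcd, a kinase strong in thalamic relay neurons, was at 15.2, 103 and 65.2 CPM in NC and at 157, 155 and 94.8 CPM in HT (unadjusted p = 0.0799). The count of 5 was 3, 9 and 2 without NC replicates 1, 2 and 3, and 1, 1 and 7 without HT replicates 1, 2 and 3. The synaptic, channel and receptor groups lay on the same side, and the part of thalamic tissue in them was not tested. Markers of striatum gave 3 of 15 higher (20%, with sums of 469.1 to 565.1 CPM in NC and 545.6 to 660.5 CPM in HT), and those of cortex and hippocampus gave 2 of 15 higher (13.3%) and 1 lower (6.67%). Both lists gave 6 higher without NC replicate 2, and the other omissions gave 1 or 2 for striatum and 0 or 2 for cortex and hippocampus.

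Of 13 tested markers of the arcuate and ventromedial nuclei, 5 were lower (38.5%, against 5.35% of all genes) and 1 was higher (7.69%, against 5.69%), with a median of -0.38 and sums of 272.7 to 299.4 CPM in NC and 246.9 to 306.1 CPM in HT. The lower ones were Ghrh, Fezf1, Kiss1, Nr5a1 and Pomc, and the higher one was Dlk1. Kiss1, for kisspeptin, was at 2.98, 2.14 and 2.09 CPM in NC and at 1.31, 1.21 and 1.07 CPM in HT, and Pomc, the melanocortin precursor, was at 46.8, 68.4 and 62.3 CPM in NC and at 35.7, 37.8 and 53.2 CPM in HT. Npy, another defining gene of the arcuate nucleus, was at or near 0 in all 6 libraries. Agrp, also on this list, was at 12.2, 9.83 and 12.5 CPM in NC and at 6.57, 5.72 and 14.25 CPM in HT. The count of 5 was 4, 5 and 4 without NC replicates 1, 2 and 3, and 3, 4 and 6 without HT replicates 1, 2 and 3. The count of 1 higher was 3 without NC replicate 2 and 0 in each other omission. Ghrh and Fezf1 count in this list as well as in the PVN lists, and the part of dissection in the peptide genes was not tested.

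Of 12 tested ependyma markers, 2 cilia genes were lower (16.7%, against 5.35% of all genes), Cfap126 and Ccdc153, with sums of 193.1 to 294.5 CPM in NC and 162.8 to 181 CPM in HT. That count was 1, 6 and 6 without NC replicates 1, 2 and 3, and 2, 0 and 0 without HT replicates 1, 2 and 3. Blood markers summed to 1017 to 1399 CPM in NC and to 539.6 to 811.3 CPM in HT. Of 7 tested blood markers 2 were lower (28.6%, against 5.35% of all genes) and 1 was higher (14.3%, against 5.69%). The lower ones were table entries of the same name, Hba-a2, an alpha globin, and the higher one was S100a9 of neutrophils. Of 9 tested markers of choroid plexus, Ttr was lower (11.1%, against 5.35%), with overlap, and Tmem72 was higher (11.1%, against 5.69%), while Otx2 was at or near 0. Oligodendrocyte markers gave 0 calls of 16, with sums of 11400 to 18900 CPM in NC and 12900 to 15650 CPM in HT, and meninges markers gave 0 of 11. Oligodendrocyte precursors gave 1 of 11 lower (Bmp4, 9.09%, against 5.35% of all genes). The subthalamic and lateral hypothalamic list gave 1 of 10 higher (Barhl1, 10%, against 5.69%), and the suprachiasmatic list gave 0 of 10. Without NC replicate 2 each of the last 2 lists gave 4 higher and 1 lower, and without NC replicate 1 the oligodendrocyte list gave 4 lower.

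Heat shock and chaperone genes had 0 of 16 called, and 4 lower and 1 higher without NC replicate 2. Genes of endoplasmic reticulum stress had 1 of 18 lower (5.56%, near the 5.35% of all genes), the pseudokinase gene Trib3, at 0.992, 1.16 and 1.10 CPM in NC and at 0.375, 0.539 and 0.816 CPM in HT. The count of 1 for endoplasmic reticulum stress was 7 without NC replicate 2, 1 without HT replicate 3 and 0 in the other 4 omissions. Of 28 genes that the study names in its text, 6 were higher (21.4%, against 5.69% of all genes) and 11 lower (39.3%, against 5.35%) at an unadjusted p under 0.05, but that list was chosen on these samples and is no independent evidence of a direction. The higher count was 0, 13 and 0 without NC replicates 1, 2 and 3, and 0, 1 and 5 without HT replicates 1, 2 and 3, and the lower count was 7, 13 and 9, and then 10, 9 and 6. Agtr2, an angiotensin receptor on it, was at 0.529, 0.983 and 0.753 CPM in NC and at 2.25, 1.48 and 0.816 CPM in HT (log2 fold change 0.99, SE 0.44, unadjusted p = 0.058).

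The same operation was also studied in the amygdala, in its central nucleus (CEA), with 3 NC and 3 HT libraries. Whether any rat gave both regions is not clear from the methods, and the fit took all libraries as independent. An interaction term tested whether the effect of HT differed between the regions. It gave 0 of 17405 genes at the adjusted threshold of edgeR, 1 with DESeq2 and 2103 (12.1%) at an unadjusted p under 0.05, of which 1260 (7.24%) had the larger value in the PVN and 843 (4.84%) in the CEA. Without PVN NC replicate 2 it gave 693 at the adjusted threshold. In the CEA alone, 0 of 16413 genes passed the adjusted threshold of edgeR. The unadjusted threshold gave 616 there (3.75%), of which 385 (2.35%) were higher in HT and 231 (1.41%) lower. Heph had a log2 fold change of 1.13 (SE 0.17) in the CEA and 1.21 in the PVN, and Gfap had -0.83 (SE 0.24) and -0.75. The values for Scd were -1.36 (SE 0.20) and -0.95, and for Fos -1.69 (SE 0.33) and -0.88, with an unadjusted interaction p of 0.0679 for Fos.

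Hlf and A2m had opposite signs in the regions. Hlf was at -0.26 (SE 0.24) in the CEA and 1.03 in the PVN, and A2m was at -1.39 (SE 0.71) and 1.95. Their interaction p was 0.003 and 0.00205 before adjustment, and 0.413 after it for both (edgeR). The list medians in the CEA were 0.04 for the clock genes, -0.45 for the immediate early genes, -0.30 for cholesterol synthesis and -0.06 for the neuropeptides, beside PVN values of 0.33, -0.39, -0.15 and -0.39. For the postsynaptic genes they were -0.10 in the CEA and 0.42 in the PVN, and for the ribosomal proteins 0.45 and -0.24. These differences between lists have no test.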

How the data were processed

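The authors mapped strand-specific reads to a rat genome with HISAT2, counted them per gene with featureCounts (versions not given in the sources used here), and deposited raw counts in 1 table. Of its 35032 genes, 32883 had an Ensembl identifier and 2149 were assembled transcripts, and 1 stray header line was left out. The methods name mRatBN7.2, but the table names no build and places genes past the end of chromosome 1 of that assembly, so coordinates are printed as the table has them.

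Groups came from sample titles. HT was compared with NC in R 4.3.3 with edgeR 4.0.16 (filterByExpr, TMM, two-sided quasi-likelihood F test, Benjamini-Hochberg, threshold 0.05). Alternatives were DESeq2 1.42.0, its size factors, other filters, no mitochondrial genes, all 4 PVN groups in the fit, a replicate block, and omission of each library. The edgeR steps were tested on simulated data. A count was worth 0.0568 to 0.0670 CPM in these 6 libraries.

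Named genes were those past the adjusted threshold, the 12 of smallest p in each direction among genes with no overlap, a mean of at least 1 CPM and a plain symbol, up to 4 of smallest p in each list, and a fixed set of stress axis and PVN genes. Some genes that this rule names are not reported here. Members and lists were chosen with earlier results of these data known, so lists have counts and medians and no test. Promoters came from RefSeq (GRCr8), matched by symbol or synonym.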

Additional observations from a re-analysis of the deposited data

How the results depend on the processing

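The count of 2 genes at the adjusted threshold was 29 with DESeq2, 4 with no low-count filter, 0 with all 4 PVN groups in the fit, and 0 to 3418 when 1 library was left out, against 1847 at an unadjusted p under 0.05. That unadjusted count was 3829 with all 4 PVN groups and 710 to 5992 when 1 library was left out. With replicate numbers as a block, 2 genes passed the adjusted threshold and 1911 the unadjusted one (1355 higher, 556 lower). Deviations of same-numbered NC and HT libraries correlated at -0.03, -0.06 and -0.03. These values show no pairing by number but cannot exclude one, as libraries of different number were not compared. The difference between regions went from 0 genes to 1 with DESeq2 and to between 0 and 693 when 1 library was left out, and its count of 2103 (difference between regions in the HT effect, genes at an unadjusted p under 0.05) to between 923 and 3856. The cause of these shifts was not tested.

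Of 2474 values of 190 named genes under the alternatives, 2320 kept direction and side of the adjusted threshold, 130 passed it, 8 no longer did and 16 changed sign. Only 2 genes passed that threshold in the main fit, so keeping the side mostly meant staying uncalled. Of the 130, 110 came from the omission of NC replicate 2, where 80 values kept direction and side, and 19 came from DESeq2. With the block Sgk1 was at -0.10 and Crhr1 at 0.00. When 1 library was left out, the log2 fold change of Crhr1 ran from -0.19 to 0.17, Fkbp5 from -0.13 to 0.98, Hbb from -0.53 to 0.80, Mt2A from -0.06 to 1.32, Per1 from -0.28 to 0.33, Sgk1 from -1.33 to 0.81, Sim1 from -0.08 to 0.18, Tmem125 from -0.37 to 0.02 and Tsc22d3 from -0.20 to 0.22.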
